A study of Mus musculus with 4 samples.

Results

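The loci of 6 genes of the B-lymphoid programme were read in Hi-C profiles of mouse haematopoietic progenitors: Ikzf1, Pax5, Foxo1, Il7r, Rag1 and Rag2. The genes were chosen by name, with earlier results of these data known. They were placed by intervals of the mm9 genome, of which Rag1 and Rag2 share 1. The 5 intervals overlapped 25 of the 117252 bins of 20 kb that had a score in all libraries, and the intervals with 1 Mb on each side overlapped 500. Libraries came from bone marrow cells depleted of lineage-marked cells, 2 with the label Stag2 wildtype and 2 with the label Stag2 knock-out, cut with the restriction enzyme DpnII. The sources used here do not give strain, age or the means of deletion, and no source says if libraries of the same genotype stem from different animals. The Stag2 protein belongs to cohesin, a complex that encircles DNA, extrudes loops of chromatin and halts at sites bound by the protein CTCF. No expression was measured, so the cell type label could not be checked against marker genes.

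Progenitors that enter the B lineage switch on a small set of regulators in order. Ikaros, encoded by Ikzf1, is a zinc finger protein needed for lymphoid development. Foxo1 is a forkhead factor that activates Il7r and the Rag genes in early B cells, and Pax5 is the paired-box factor that commits cells to the B lineage. Il7r encodes the alpha chain of the receptor for interleukin 7, a cytokine that early B cells of the mouse need to grow. Rag1 and Rag2 encode the recombinase that cuts antigen receptor genes, and they lie side by side. Loop extrusion by cohesin brings distant enhancers into reach of such genes within a domain.

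The measurement was the insulation score, which is a measure of how many contacts span a bin, and the level it is scaled to is not stated. Few contacts span a bin of low score, and a local minimum is read as a domain boundary. The authors' scores of single libraries were used as deposited, and their log base and window are not stated. Sequencing depth was unknown. Bins were tested across the whole genome with limma at an adjusted p below 0.05. That test called 22.4% of bins, namely 13160 bins (11.2%) lower and 13148 (11.2%) higher in knock-out, and after each library was centred on its median it called 8603 (7.34%) lower and 18662 (15.9%) higher. With libraries scaled to unit SD the shares were 10.1% lower and 9.84% higher, and without a variance trend 10.2% and 8.82%. With 2 libraries per genotype, the tests weigh differences against the spread among these 4 libraries alone, and that spread may be technical. In bulk Hi-C a change in every cell and a change in the share of cells with a given fold cannot be told apart.

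The score over the gene was lower in knock-out at 5 of 5 intervals by the means of each genotype, and the groups of libraries did not overlap at Pax5, Ikzf1, Foxo1 and Il7r. In 25 of the 25 single bins of the intervals the mean of the knock-out libraries lay below that of wildtype, against 52.7% of all tested bins. The median difference over the 25 bins was -0.104, against -0.00721 over all tested bins. Of the 25 bins, 12 (48.0%) passed the test as lower and 0 as higher, against 11.2% of all bins in each direction. The count of lower bins was 8 after centring on the median, 9 without a variance trend and 14 at unit SD. Those settings called 7.34%, 10.2% and 10.1% of all bins lower. Fewer bins passed without wildtype replicate 1, wildtype replicate 2 or knock-out replicate 1, and more without knock-out replicate 2. The share of all bins called in those fits is not given here. The smallest interval difference among them was -0.000227, at the Rag genes without knock-out replicate 2. Neighbouring bins vary together, so the 25 bins are not independent measurements. In 21 of the 25 bins (84.0%) the higher knock-out library was below the lower wildtype library, which held in 34.8% of all bins. The reverse order held in 0 of the 25 and in 31.0% of all bins. An exact permutation test of the interval means, two-sided, gave p = 0.333 at those 4 genes, and with 2 libraries per genotype no smaller p is possible.

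**Figure D1:**
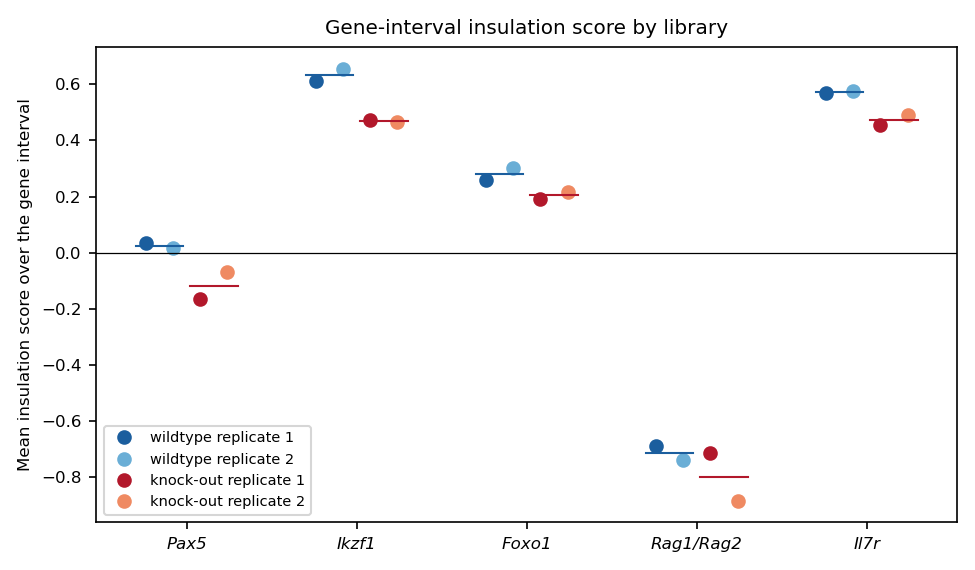
Mean insulation score over each gene interval, with 1 point per library and a line at the mean of each genotype (vertical axis, score units). The 2 knock-out points lie below the 2 wildtype points at Pax5, Ikzf1, Foxo1 and Il7r, whereas at Rag1/Rag2 knock-out replicate 1 lies between the wildtype libraries.

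These lower scores lay in the positive compartment, where scores in the rest of the genome were more often called higher. The compartment eigenvector divides each chromosome into regions that contact each other preferentially, and the 200 kb bins that hold the 6 genes had positive values in both genotypes. Among all 57855 tested bins with a positive wildtype eigenvector, 4.81% were called lower and 18.5% higher. In the positive bins of the 5 windows, 74 of 353 were called lower and 15 higher. The 15 are all in the Pax5 window, where the higher calls numbered 4 without a variance trend and 29 after centring on the median. Over all bins of the 5 windows the lower calls numbered 85. They numbered 54 after centring on the median, 62 without a variance trend and 109 at unit SD. Fewer bins passed without wildtype replicate 1 or without wildtype replicate 2, and more without knock-out replicate 1 or without knock-out replicate 2. In the negative bins of the windows 11 of 147 were called lower and 0 higher, against 17.5% and 4.02% of all negative bins. The 5 loci were picked for their genes, with earlier results of these data known. The difference between them and the other positive bins was not tested.

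Promoters of the 4 genes with a called bin in their interval are shown. The bin at the 5′ edge of the gene carried the larger difference at Ikzf1, Pax5 and Il7r and the smaller one at Foxo1. The sequences are from RefSeq on GRCm38.p6, each 300 bases long around a gene start, 5′ to 3′ on the strand of the gene. Of 2 RefSeq promoters of Ikzf1 the first is shown. The build differs from mm9, so they were not placed in the bins by coordinate. Capitals mark GATC, the site at which DpnII cuts, which occurs in 48.0% of the 32851 promoters of the table.
Ikzf1, chr11:11685675-11685974, plus strand: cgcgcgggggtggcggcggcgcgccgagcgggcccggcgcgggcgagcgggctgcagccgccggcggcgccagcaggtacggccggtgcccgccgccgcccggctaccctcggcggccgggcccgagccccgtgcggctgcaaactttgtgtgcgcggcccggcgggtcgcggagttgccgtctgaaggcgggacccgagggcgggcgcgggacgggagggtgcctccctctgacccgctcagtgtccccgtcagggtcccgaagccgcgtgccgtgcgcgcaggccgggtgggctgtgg
Pax5, chr4:44710645-44710944, minus strand: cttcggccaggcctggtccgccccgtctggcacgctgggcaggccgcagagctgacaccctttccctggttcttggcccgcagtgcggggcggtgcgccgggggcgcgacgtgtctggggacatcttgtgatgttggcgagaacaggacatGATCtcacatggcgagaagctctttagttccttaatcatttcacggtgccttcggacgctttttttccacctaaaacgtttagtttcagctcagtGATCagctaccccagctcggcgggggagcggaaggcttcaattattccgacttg
Foxo1, chr3:52268087-52268386, plus strand: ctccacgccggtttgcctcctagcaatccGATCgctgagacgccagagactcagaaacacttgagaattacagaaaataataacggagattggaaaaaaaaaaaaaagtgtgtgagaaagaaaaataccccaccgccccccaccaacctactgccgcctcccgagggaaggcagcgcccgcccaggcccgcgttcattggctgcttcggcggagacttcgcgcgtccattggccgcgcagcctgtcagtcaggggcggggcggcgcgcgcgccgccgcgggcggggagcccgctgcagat
Il7r, chr15:9529827-9530126, minus strand: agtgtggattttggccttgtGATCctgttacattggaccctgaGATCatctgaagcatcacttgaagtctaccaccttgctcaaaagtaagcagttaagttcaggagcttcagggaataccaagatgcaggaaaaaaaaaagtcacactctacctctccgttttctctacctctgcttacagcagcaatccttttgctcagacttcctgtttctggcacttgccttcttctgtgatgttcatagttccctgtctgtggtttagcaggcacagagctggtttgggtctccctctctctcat
The Pax5 and Il7r promoters hold 2 such sites each, that of Foxo1 holds 1 and that of Ikzf1 holds 0. The share of G and C was 81.3% at Ikzf1, 61.3% at Foxo1, 59.0% at Pax5 and 45.7% at Il7r, against a median of 52.7% over the table. Both strands were also searched for TCCC and GGGA with 2 bases between them, letters of the motif of EBF factors, and for AGNGGGC, a core of the CTCF motif. The EBF letters occur in 0.904% of promoters, and among these genes 1 time in Foxo1, as TCCCGAGGGA. The CTCF letters occur in 25.8% of promoters, 2 times in that of Ikzf1, 1 time in that of Foxo1 and 0 times in those of Pax5 and Il7r. These values of Ikzf1 are those of its first promoter. The second, not shown, held 0 GATC sites, 0 matches to the EBF letters, 0 to the CTCF letters and 49.0% G and C. The promoters of Rag1 and Rag2, not shown, held 0 GATC sites, 0 matches to the EBF letters and 0 to the CTCF letters. Their shares of G and C were 50% and 43%. CAGGTG, letters of a motif of the factor E2A, occurs in 20.2% of promoters and among the 6 genes 1 time, in Rag1. A match describes letters only.

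At Ikzf1 the whole gene and the sequence before its start had lower scores in knock-out. The interval (chromosome 11 from 11580001 to 11680000, mm9) averaged 0.612 and 0.655 in wildtype and 0.473 and 0.464 in knock-out. The means were 0.634 ± 0.0306 and 0.468 ± 0.00636 (SD, n = 2), a difference of -0.166. The groups did not overlap, and the gap between genotypes was wider than the range of either group. All 5 bins of the interval passed limma's test, with adjusted p from 0.00421 to 0.0462.

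The difference at Ikzf1 was largest at the 5′ edge of the gene and beyond it. The bin at the 5′ edge stood at 0.764 and 0.809 in wildtype and at 0.558 and 0.572 in knock-out. Its difference was -0.221 ± 0.0300 (standard error), against -0.104 ± 0.0329 in the bin at the 3′ edge. Called bins ran on without a gap from 11400001 to 11680000, so that 14 bins over 280 kb were lower, 180 kb of them before the interval. In that run the wildtype libraries averaged 0.584 and 0.664 and the knock-out libraries 0.442 and 0.412, a difference of -0.197. Since runs consist of called bins, their differences are selected to be large. The lowest single difference lay from 11540001 to 11560000, at -0.243 ± 0.0339 (standard error, adjusted p = 0.00439 by limma). That bin held the highest score of the domain in wildtype, at 0.811 and 0.892, and stood at 0.624 and 0.592 in knock-out. The peak of the profile was therefore lower in both knock-out libraries, at the same place. Without wildtype replicate 2 the run kept 7 of its 14 calls, and the interval 2 of its 5. Without wildtype replicate 1 the interval kept 3.

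Ikzf1 sat on a short island of positive eigenvector. The eigenvector of the 2 bins of 200 kb that the interval touches averaged 0.0255 in wildtype and 0.0215 in knock-out, and these were the only positive bins of the 12 in the window. Scores dropped steeply on both sides of the gene, to a boundary 340 kb before it and another 260 kb after it. Fignl1 and Ddc follow Ikzf1 in the RefSeq gene order, and no call fell between the end of the interval and the second of these boundaries. The difference there turned positive without passing the test, up to 0.127 ± 0.0521 (standard error, adjusted p = 0.102 by limma) from 11920001 to 11940000. Another 5 bins from 12580001 to 12680000, at the edge of the window, were called lower with a mean difference of -0.210. A run of 3 called bins from 10720001 to 10800000, 780 kb before the gene, differed by -0.133. It held 0 calls without either wildtype library, and the run at the edge of the window held 0 without wildtype replicate 2. In all, 23 of the 105 bins (21.9%) of the Ikzf1 window were called lower and 0 higher. The count was 7 without wildtype replicate 2.

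At Pax5 the difference grew along the gene and was largest beyond its 5′ end. The interval (chromosome 4 from 44540001 to 44730000, mm9) averaged 0.0350 and 0.0164 in wildtype and -0.166 and -0.0689 in knock-out. The means were 0.0257 ± 0.0132 and -0.118 ± 0.0690 (SD, n = 2), a difference of -0.143. The groups did not overlap, but the knock-out libraries lay 0.0976 apart, with replicate 1 the lower. Of the 10 bins, the 5 nearest the 5′ edge passed limma's test and the 5 towards the 3′ edge did not. Without wildtype replicate 1 or without wildtype replicate 2, 3 of the 10 passed.

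Pax5 lies on the minus strand, so its start is at the higher coordinate. From the 3′ to the 5′ edge of the gene the wildtype score climbed by 0.267 in replicate 1 and 0.369 in replicate 2. In knock-out the same step was 0.0239 and 0.0910, so that the profile over Pax5 was nearly level. The bin at the 3′ edge differed between genotypes by -0.0200 ± 0.0426 (standard error, adjusted p = 0.757 by limma). At the 5′ edge the bin stood at 0.178 and 0.198 in wildtype and at -0.152 and -0.0325 in knock-out. Its difference was -0.280 ± 0.0438 (standard error, adjusted p = 0.00539 by limma).

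The lower scores continued past the start of Pax5 as the longest run of called bins in the 5 windows. It held 26 bins over 520 kb from 44640001 to 45160000. The wildtype libraries averaged 0.253 and 0.278 there and the knock-out libraries -0.0466 and 0.0592, a difference of -0.259. Differences reached -0.353 ± 0.0606 (standard error, adjusted p = 0.00684 by limma) from 44800001 to 44820000. The libraries of that bin were at 0.338 and 0.373 in wildtype, at -0.110 in knock-out replicate 1 and at 0.115 in knock-out replicate 2. Both knock-out libraries were lower, but replicate 1 was lower by more, and the run's mean difference was -0.206 without it and -0.312 when knock-out replicate 2 was left out. With 1 library left out at a time, from 19 to 24 of the 26 bins still passed. Zcchc7 and Grhpr are the next genes in the RefSeq order on that side, and their mm9 positions were not used here.

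On the other side of Pax5, past the 3′ end, the scores were higher in knock-out. A run from 43800001 to 43980000 held 8 called bins and averaged 0.317 and 0.314 in wildtype and 0.408 and 0.470 in knock-out, a difference of 0.123. Another from 43620001 to 43740000 held 5 called bins and differed by 0.0994. In all 15 bins of the window (13.6%) were called higher and 26 (23.6%) lower, of 110. Leaving out wildtype replicate 1 gave a difference of 0.125 in the run from 43800001 and 0.0977 in that from 43620001. Leaving out wildtype replicate 2 gave 0.122 and 0.101 there. Dropping knock-out replicate 1 gave 0.154 and 0.114, and dropping knock-out replicate 2 gave 0.0925 and 0.0846. The count of higher calls in the window depended on the setting. It was 4 without a variance trend, 0 at an adjusted p below 0.01 by limma and 29 after centring on the median. Between the mean profiles of the genotypes Pearson's r across the 110 bins was 0.877, against values from 0.981 to 0.996 in the other 4 windows. Within a genotype r was 0.990 and 0.978 in the Pax5 window. Neighbouring bins share contacts, so these correlations describe profiles and carry no test.

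**Figure D2:**
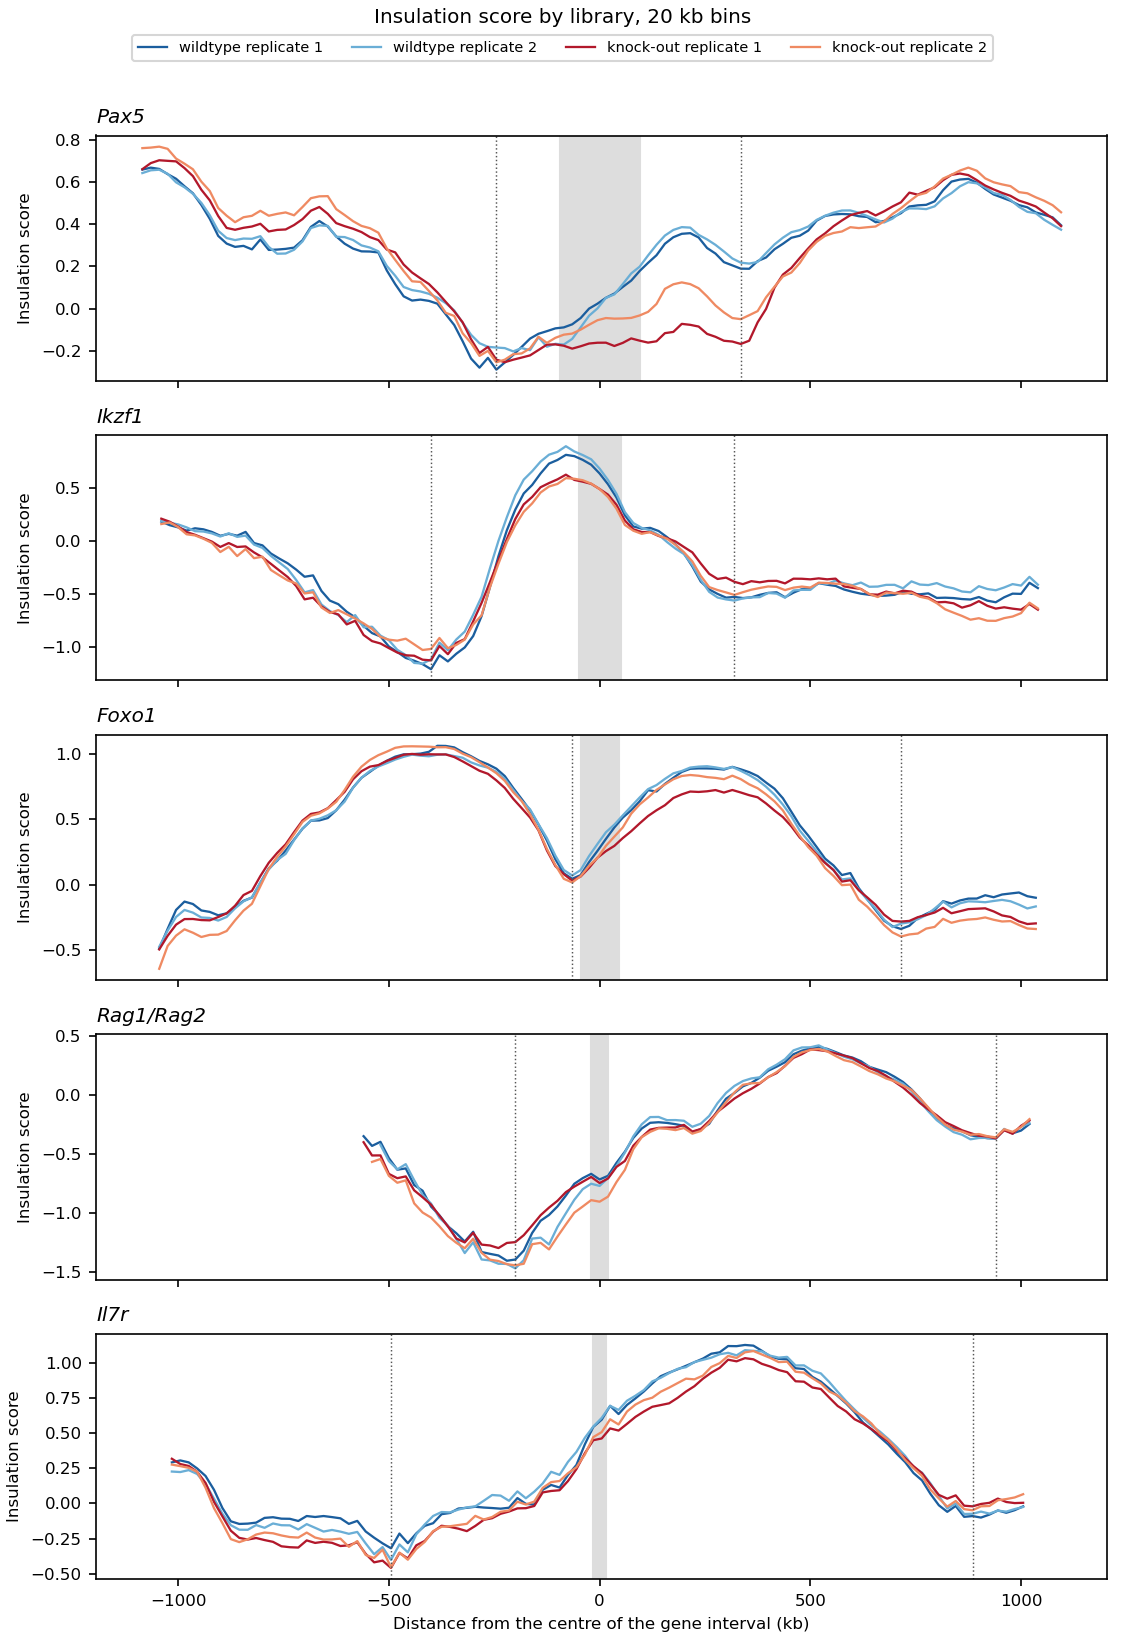
Insulation score of each library in 20 kb bins (vertical axes, score units) against distance from the centre of the gene interval (horizontal axis, kb), with the interval shaded and the boundaries of the mean profile dotted. The wildtype lines rise over the right part of Pax5 while both knock-out lines stay low, and the peak over Ikzf1 is lower in both knock-out libraries.

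Foxo1 began beside the second deepest of the boundaries described here, and its score differed more towards its 3′ end. The interval (chromosome 3 from 52070001 to 52160000, mm9) averaged 0.260 and 0.302 in wildtype and 0.192 and 0.217 in knock-out. The means were 0.281 ± 0.0298 and 0.205 ± 0.0182 (SD, n = 2), a difference of -0.0763. The groups did not overlap, and the higher knock-out library minus the lower wildtype library gave -0.0424. Only the bin at the 3′ edge passed limma's test, at -0.116 ± 0.0349 (standard error, adjusted p = 0.0399). It was not called without wildtype replicate 1, wildtype replicate 2 or knock-out replicate 1, after centring on the median or without a variance trend. That edge stood at 0.439 and 0.461 in wildtype and at 0.298 and 0.369 in knock-out. At the 5′ edge the libraries were at 0.0749, 0.114, 0.0641 and 0.0667, wildtype first, and the difference was -0.0288 ± 0.0351 (standard error, adjusted p = 0.573 by limma).

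Beyond the 3′ end of Foxo1 the profile climbed to a broad maximum that was lower in knock-out. From 52340001 to 52540000, 10 called bins averaged 0.854 and 0.844 in wildtype and 0.683 and 0.776 in knock-out, a difference of -0.120. These calls rested on small differences: the run held 0 of its 10 calls without wildtype replicate 1, without wildtype replicate 2 or without knock-out replicate 1. Its mean difference was -0.0732 without knock-out replicate 1 and -0.166 when replicate 2 was left out instead, with 10 of 10 called in the latter case. A second run from 53040001 to 53160000, 880 kb past the gene at the edge of the window, held 6 called bins. It averaged -0.0791 and -0.143 in wildtype and -0.258 and -0.299 in knock-out, a difference of -0.168, with 0 calls without wildtype replicate 1. Of the 105 bins of the window 19 (18.1%) were called lower and 0 higher. That count was 0 without wildtype replicate 1, 4 without wildtype replicate 2, and 5 after centring on the median. Cog6 and Lhfp follow Foxo1 in the RefSeq order.

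At Il7r the score was lower in knock-out over the gene and over the sequence before it. The difference between the edges of the gene was not tested. The interval (chromosome 15 from 9430001 to 9460000, mm9) spans 2 bins and averaged 0.569 and 0.577 in wildtype and 0.4554 and 0.489 in knock-out. The means were 0.573 ± 0.00542 and 0.472 ± 0.0238 (SD, n = 2), a difference of -0.101. The groups did not overlap, and the wildtype libraries were nearly equal. The bin at the 5′ edge passed limma's test, at -0.117 ± 0.0311 (standard error, adjusted p = 0.0263), and the bin at the 3′ edge, at -0.0848 ± 0.0300 (standard error, adjusted p = 0.0666), did not. With 1 library left out, the called bin was lost in 3 of 4 cases and kept without knock-out replicate 2. It was also lost after centring on the median and without a variance trend.

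Il7r lies on the minus strand, and the called bins extended from its 5′ edge away from the gene. From 9440001 to 9740000, 13 of 15 bins were called, with wildtype libraries at 0.885 and 0.884 and knock-out libraries at 0.724 and 0.789. The difference of -0.128 peaked at -0.161 ± 0.0365 (standard error, adjusted p = 0.0157 by limma) from 9600001 to 9620000. Of the 13 calls 4 were made without wildtype replicate 1, 4 without wildtype replicate 2, 6 without knock-out replicate 1, and 13 when knock-out replicate 2 was left out. Spef2 and Prlr are the next genes in the RefSeq order on that side. Over the whole window 17 of 102 bins (16.7%) were called lower and 0 higher, and the count ran from 4 to 30 with 1 library left out and was 9 after centring on the median. The groups did not overlap and knock-out was lower in 69 of the 102 bins (67.6%), against 34.8% of all bins, so lower scores were spread over most of the window.

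At Rag1 and Rag2 no bin was called. The interval (chromosome 2 from 101470001 to 101510000, mm9) averaged -0.687 and -0.739 in wildtype and -0.713 and -0.883 in knock-out. The means were -0.713 ± 0.0371 and -0.798 ± 0.120 (SD, n = 2). The groups overlapped, since knock-out replicate 1 stood between the wildtype libraries, and the difference of -0.0851 did not reach the 0.170 that separated the knock-out libraries. Leaving out knock-out replicate 2 gave -0.000227, leaving out knock-out replicate 1 gave -0.170, and p was 0.667 in the exact permutation test, two-sided. The adjusted p of the 3 bins ran from 0.271 to 0.380 by limma. Among the 78 scored bins of the window limma called 0, with 7 at an unadjusted p below 0.05, and without a variance trend it called 1 lower. Without knock-out replicate 1 it called 6 lower. Another 25 bins of the window, from 100460001 to 100960000, lacked a score in at least 1 library, so that stretch is not described.

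The Rag genes lie at the edge of a compartment. Their score was far below 0 in all 4 libraries, on the slope of the deep valley whose floor is a boundary 170 kb away. The eigenvector changed sign next to them, from -0.0262 in the 200 kb bin before to 0.0243 in the bin that holds the genes in wildtype, and from -0.0305 to 0.0183 in knock-out. Iftap lies beside Rag2 in the RefSeq order and Traf6 beside Rag1. Rag2 lies on the plus strand and Rag1 on the minus strand, so they are transcribed towards each other. The edges of the interval were not matched to their 5′ ends.

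**Figure D3:**
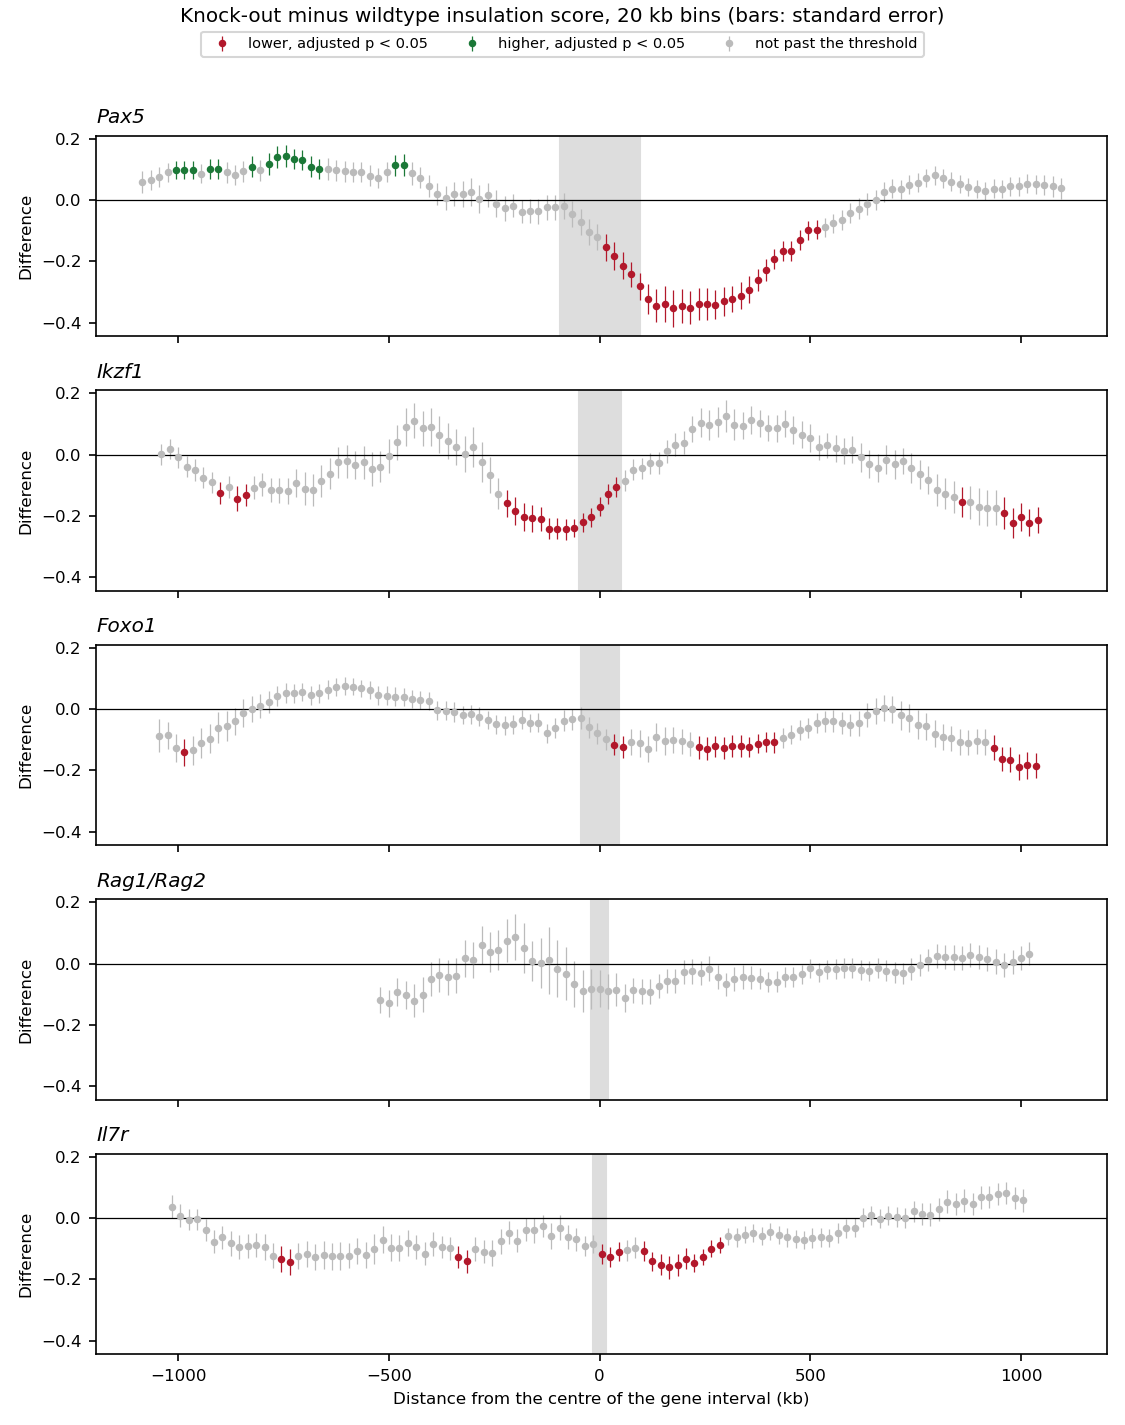
Difference of knock-out minus wildtype insulation score per 20 kb bin (vertical axes, score units, bars of 1 standard error) against distance from the centre of the gene interval (kb), coloured by limma's call. Lower bins pass the threshold over and to the right of Pax5, over and to the left of Ikzf1, and in shorter runs at Foxo1 and Il7r, and no bin does at Rag1/Rag2.

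Each gene lay between 2 boundaries whose depth was above 0 in all 4 libraries. Boundaries were local minima of the mean profile of all 4 libraries, and depth is how far the minimum lies below the mean of the highest scores within 200 kb on each side. The 10 boundaries nearest the genes had mean wildtype depths of 0.202 at the shallowest and 0.99985 at the deepest. Limma called 0 of the 10, while over all 1905 boundaries it called 0.262% shallower and 0.105% deeper, and 4 of the 10 had an unadjusted p below 0.05, as did 16.5% of all boundaries. Both knock-out libraries were shallower than both wildtype libraries at 4 of the 10, against 33.5% of all boundaries, and deeper at 1, against 15.3%.

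The deepest boundary stood 340 kb before Ikzf1, from 11220001 to 11240000. Its depth was 1.0201 and 0.980 in wildtype and 0.851 and 0.744 in knock-out, without overlap, a difference of -0.203 ± 0.0440 (standard error, adjusted p = 0.0910 by limma). After each library was scaled to unit SD it passed, with a difference of -0.248 in score units. The score at the minimum itself differed by 0.0905 ± 0.0616 (standard error, adjusted p = 0.302 by limma), which did not pass the test. The boundary after Ikzf1 had depths of 0.389 and 0.413 in wildtype and 0.250 and 0.353 in knock-out, a difference of -0.0997 with an adjusted p of 0.294 by limma.

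The valley beside the Rag genes, from 101280001 to 101300000, was 0.588 and 0.634 deep in wildtype and 0.435 and 0.479 in knock-out. The groups did not overlap, and the difference of -0.154 ± 0.0374 (standard error, adjusted p = 0.116 by limma) passed after scaling to unit SD, at -0.181. The boundary beyond the start of Pax5, from 44960001 to 44980000, went the other way, with depths of 0.209 and 0.195 in wildtype and 0.309 and 0.284 in knock-out. Its difference was 0.0949 ± 0.0348 (standard error, adjusted p = 0.240 by limma). The score at that minimum itself was called lower in knock-out, at -0.312 ± 0.0437 (standard error, adjusted p = 0.00441 by limma), within the long run of lower bins. The depths of the boundary at the start of Foxo1 overlapped between groups, at 0.775 and 0.757 in wildtype and 0.676 and 0.792 in knock-out. At Il7r the depths of both boundaries overlapped between genotypes, and their differences were -0.0124 and 0.00341.

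**Figure D4:**
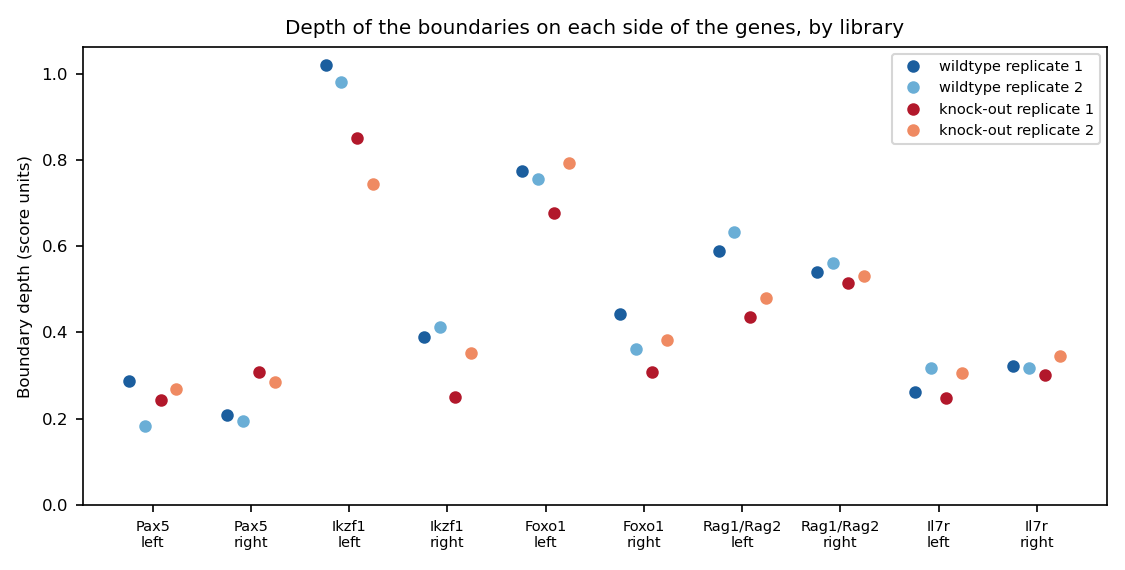
Depth of the boundary on the lower-coordinate (left) and higher-coordinate (right) side of each gene, 1 point per library (vertical axis, score units, from 0). Both knock-out points lie below both wildtype points at the 2 boundaries of Ikzf1 and the 2 of Rag1/Rag2, and above them at the right boundary of Pax5.

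Boundaries were also located in each library by itself. With minima over 10 bins on each side, the boundary nearest the interval lay on the same side in 4 of 4 libraries at each locus. At Foxo1 it was in the same bin, 10 kb before the interval, in all 4 libraries, and at Il7r it was 470 kb away in all 4. At Pax5 it lay 140, 100, 120 and 140 kb away in wildtype replicates 1 and 2 and knock-out replicates 1 and 2. In the same order it lay 280, 260, 280 and 260 kb away at Ikzf1, and 190, 170, 210 and 170 kb away at the Rag genes. The shift between libraries in this search was at most 40 kb, as large within a genotype as between genotypes. Each library had 2 or 3 boundaries in each window. The nearest boundary depended on the search at Pax5, Ikzf1 and Il7r. With minima over 5 bins on each side it lay 3880, 3880, 230 and 2690 kb from Pax5 in the same order, the wildtype ones at lower and the knock-out ones at higher coordinates. From Ikzf1 it then lay 340, 260, 340 and 3360 kb away, at the higher coordinate only in wildtype replicate 2. From Il7r it lay 830 kb away in wildtype replicate 1 and 470 kb in the other libraries, and at Foxo1 and the Rag genes the distances did not change.

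The mean score over the domain between the flanking boundaries was below that of wildtype in the knock-out mean at each of the 5 loci. For Pax5 the domain of 560 kb averaged 0.0846 and 0.0870 in wildtype and -0.160 and -0.0507 in knock-out, and 16 of its 28 bins were called lower. The highest score in it was 0.370 in the mean wildtype profile and 0.0259 in that of knock-out. For Ikzf1 the domain of 700 kb held 14 called bins of 35, for Foxo1 760 kb held 12 of 38, and for Il7r 1360 kb held 15 of 68. The domain of the Rag genes spanned 1120 kb and held 0 of 56. Its library means overlapped between genotypes, at -0.1901 and -0.2047 in wildtype and -0.2046 and -0.2547 in knock-out. Called bins that were higher in knock-out numbered 0 in each of the 5 domains. Over the genome 11.2% of bins were called in each direction. The boundaries that delimit these domains come from the same scores, so these values are a description.

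The compartment eigenvector kept its sign in both genotypes in 56 of the 56 bins of 200 kb in the windows. Over the genome 2.11% of bins differ in sign, so few of 56 would differ at that share. The count therefore does not set the windows apart. The eigenvector was deposited as 1 profile per genotype, so none of these values has a replicate check. Over the 200 kb bins that hold the genes it was lower in knock-out at Ikzf1, Pax5, Il7r and the Rag genes and higher at Foxo1. The largest of these differences was at Il7r, from 0.0206 to 0.0110, or from 0.466 to 0.249 in units of the SD of chromosome 15. At the Rag genes it went from 0.0243 to 0.0183, or from 0.719 to 0.542 of the SD of chromosome 2. At Pax5 the values were 0.0314 and 0.0308 over 2 bins, beside the longest run of lower insulation scores. In the window of Il7r the eigenvector was lower in knock-out in 11 of 11 bins, and in that of the Rag genes in 9 of 10. It was lower in 3 of 12 bins at Pax5, 5 of 12 at Ikzf1 and 2 of 11 at Foxo1, against 52.4% of all bins. Of the 38 positive bins 19 were lower, against 48.4% of all positive bins. The largest fall in the windows lay at the edge of the Foxo1 window, from 53000001 to 53200000, at 0.0191 in wildtype and 0.00440 in knock-out, in the same stretch as the called run there.

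**Figure D5:**
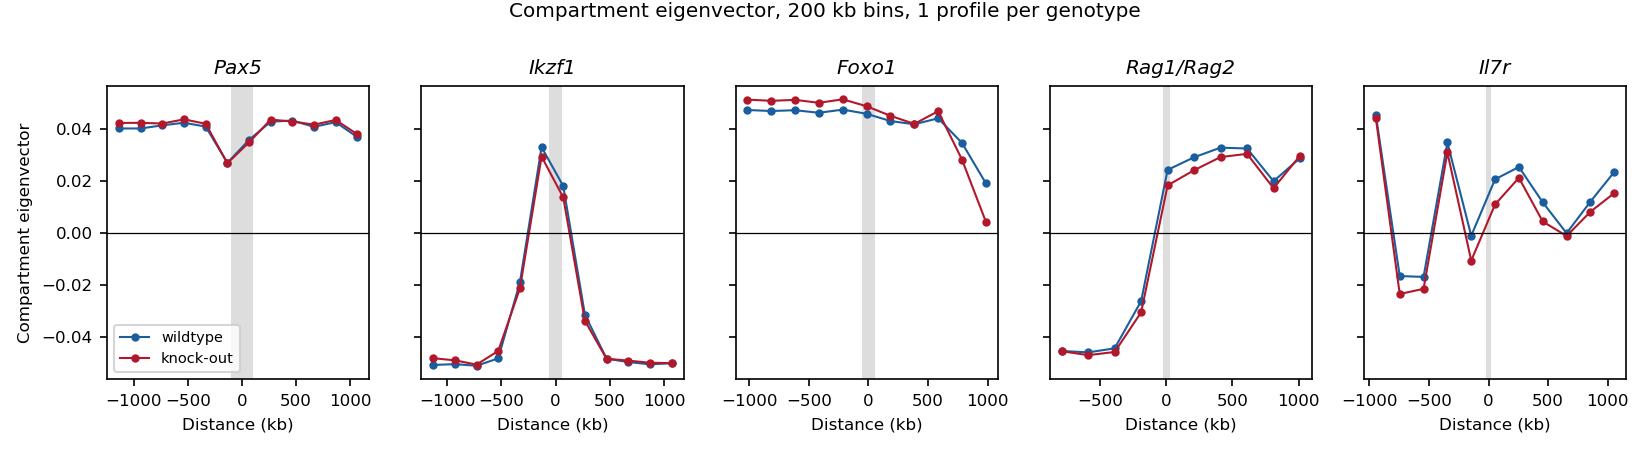
Compartment eigenvector of wildtype and knock-out in 200 kb bins (vertical axis, eigenvector units, whose scale differs between chromosomes) against distance from the centre of the gene interval (kb). The lines have the same sign in all bins shown, and the knock-out line lies below the wildtype line in 11 of 11 bins around Il7r.

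The 10 kb profiles, deposited as 1 per genotype, gave the same direction at the 5 intervals. They may rest on the same libraries and are no independent evidence. The mean over Ikzf1 was 0.445 in wildtype and 0.333 in knock-out, lower in 10 of 10 bins. Over Pax5 it was 0.0458 and -0.0698, lower in 17 of 19 bins, with differences from -0.256 to 0.0111 along the gene. Over Foxo1 it was 0.402 and 0.362, a difference of -0.0399, against -0.0763 at 20 kb. Over Il7r it was 0.382 and 0.268 and over the Rag genes -0.533 and -0.603, lower in 3 of 3 and 4 of 4 bins. The lowest 10 kb difference of the Pax5 window was -0.332, from 44810001 to 44820000, inside the bin with the lowest difference at 20 kb.

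The interval differences of Pax5, Foxo1 and Il7r shrank once a running mean was subtracted, and that of Ikzf1 did so least. For this the running mean over 51 bins was taken off each library's profile. That mean takes in the called bins themselves, 26 in the run at Pax5 and 14 in the run at Ikzf1. How far a difference shrinks therefore depends on the length of the run, and cannot tell a broad trend from a local change. The interval difference was then -0.142 at Ikzf1, or -0.166 before, with libraries at 0.833 and 0.831 in wildtype and 0.681 and 0.698 in knock-out. At Pax5 it was -0.0132, at Foxo1 -0.0126 and at Il7r -0.0114, and the libraries of the genotypes overlapped at Pax5 and Foxo1 but not at Il7r. At the Rag genes it was -0.0440, again with overlap. The run beyond the start of Pax5 kept a difference of -0.120 of its -0.259, and the run at Ikzf1 -0.162 of its -0.197. In this form limma called 0 bins in the genome (0.00% in each direction), so no bin of the windows passed either, and 9.60% of all bins were lower at an unadjusted p below 0.05. By comparison, the lower run of chromosome 11 at the Ebf1 locus, which was picked for its size, held 79 called bins over 1620 kb with a mean difference of -0.286. That of Pax5 differed by -0.259 over 520 kb, and the difference between these runs was not tested.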

How the data were processed

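Hi-C contacts were measured in 4 libraries of lineage-depleted mouse bone marrow cells, cut with DpnII per the labels' protocols. The authors deposited insulation scores of each library in 20 kb bins and of each genotype in 10 kb bins, and a compartment eigenvector score per genotype in 200 kb bins, on mm9 per the submitters' processing notes. The read filters, aligner, balancing, insulation window and log base are not given in the sources used here, and depth is unknown. Columns were assigned to libraries by the library number in the titles. The authors' deposited differences equalled the differences of the means computed here within 5.00e-09.

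Bins scored in all 4 libraries were fitted together with limma 3.58.1 in R 4.3.3 (eBayes with a variance trend), tested two-sided with Benjamini-Hochberg adjustment at 0.05. The p-values of boundary depths came from the same model without a trend, over all local minima at least 0.2 deep. Interval means used two-sided exact permutation tests. Any bin overlapping an interval, or 1 Mb on each side, was counted. The fit of bins was tested on simulated data. There the noise was independent between bins and had the same spread in each, so runs of neighbouring bins were not covered. Runs join called bins within 50 kb and are described where they hold at least 3 called bins. Other genes are named only as RefSeq neighbours. A longer list of B-lymphoid genes was not placed, since no mm9 annotation was used here. The members and lists were chosen with earlier results of these data known. Alternatives were a fit without trend, unit SD, median centring, a subtracted running mean, a stricter threshold, other windows and boundary settings, a block by title suffix, and leaving out each library.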

Additional observations from a re-analysis of the deposited data

How the results depend on the processing

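With 1 library left out, the bins called lower numbered 19 to 26 in the Pax5 window, 7 to 32 at Ikzf1, 0 to 27 at Foxo1, 0 to 6 at the Rag genes and 4 to 30 at Il7r. Those called higher numbered 0 to 25 at Pax5 and 0 to 7 at Ikzf1, and 0 at the other loci. The interval differences ran from -0.192 to -0.0946 at Pax5, -0.187 to -0.144 at Ikzf1, -0.0974 to -0.0553 at Foxo1, -0.170 to -0.000227 at the Rag genes and -0.118 to -0.0842 at Il7r. With the running mean subtracted 0 bins were called in any window, since limma then called 0 genome-wide (9.60% were lower at an unadjusted p below 0.05). The interval differences were then -0.0132, -0.142, -0.0126 and -0.0114 at Pax5, Ikzf1, Foxo1 and Il7r. The window differences were 0.00145 at Pax5, -0.00142 at Ikzf1, 0.00789 at Foxo1, 0.00102 at the Rag genes and -0.00627 at Il7r. Those of Pax5, Foxo1 and the Rag genes were thus positive. The subtracted mean pulls the average of a window wider than its 51 bins towards 0 in each library, so these signs carry no result. Without a variance trend the lower calls were 5 at Foxo1, 1 at the Rag genes and 10 at Il7r, and the higher calls at Pax5 were 4. At unit SD they were 29 at Foxo1 and 32 at Il7r, with 4 higher at Pax5 and 1 at Ikzf1. The interval differences were -0.194 at Ikzf1 and -0.128 at Il7r, and the window differences -0.0704 at Foxo1 and -0.0756 at Il7r. After median centring 5 bins were lower at Foxo1 and 9 at Il7r, and 29 were higher at Pax5 and 4 at Foxo1. The interval differences were -0.143 at Ikzf1 and -0.0783 at Il7r, and the window differences -0.00529, -0.0310, -0.0304 and -0.0393 at Pax5, Ikzf1, Foxo1 and Il7r. At an adjusted p below 0.01 limma called 8 lower at Ikzf1, 0 at Foxo1 and 1 at Il7r, and 0 higher at Pax5. Within 0.5 Mb it called 14 lower at Ikzf1 and 12 at Foxo1, and 2 higher at Pax5, with window differences of -0.110 at Pax5, -0.0218 at Ikzf1 and -0.0891 at Il7r. In the 10 kb profiles the interval differences were -0.112 at Ikzf1 and -0.0399 at Foxo1, and the window differences -0.0329 and -0.00459. The depth difference changed sign with 1 library left out at the left boundary of Pax5 (-0.0321 to 0.0721, negative without wildtype replicate 2), the left of Foxo1 (-0.0895 to 0.0263, positive without knock-out replicate 1), the left of Il7r (-0.0419 to 0.0171, positive without knock-out replicate 1 and, at 0.0151, without wildtype replicate 2) and the right of Il7r (-0.0179 to 0.0248, negative without knock-out replicate 2). It was 0.000294 at the left of Il7r with minima over 5 bins, and -0.0191 at its right from the wildtype profile and -0.0134 at unit SD. At unit SD the left boundaries of Ikzf1 (-0.248) and the Rag genes (-0.181) passed. One suffix in the titles is shared by 1 library of each genotype. Libraries that share it did not deviate together (r = -0.0551 across bins), so it was not taken as pairing. With it as a replicate block, limma called 24, 24, 26, 0 and 19 bins lower at Pax5, Ikzf1, Foxo1, the Rag genes and Il7r, and 13843 lower and 12929 higher in the genome.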
